A study of Mus musculus with 6 samples.

Results

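The mitochondrial genome is a small circle that codes for 13 protein subunits of the respiratory chain and ATP synthase, 2 ribosomal RNAs and 22 transfer RNAs. Its transcripts were taken as all genes of the deposited count table whose mouse symbol begins with mt-. This gave 37 of 37620 genes, and the complete set of classes was found. Of these, 18 had enough counts to be tested, namely 13 of 13 protein-coding genes, 2 of 2 rRNA genes and 3 of 22 tRNA genes. The tissue was the apex of the heart of wild-type C57/BL6J mice, taken when the myocardium had been ischaemic for 30 min and reperfused for 120 min. The vehicle group (n = 3) received the vehicles of yohimbine and of dexmedetomidine, separately, ahead of surgery. The dexmedetomidine group (n = 3) received the yohimbine vehicle, then 30 min later dexmedetomidine at 10 µg/kg, and surgery 20 min after that. Dexmedetomidine is a sedative agonist of alpha-2 adrenergic receptors, and yohimbine blocks these receptors. Both groups thus shared ischaemia, reperfusion and the yohimbine vehicle, no group without surgery is in the series, and the labels give neither age nor sex. Separate animals per library are not named in the labels, and the p-values below speak only to the variation among these 6 samples.

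Mitochondrial genes are transcribed from both strands as long precursors, which are cut mostly at the tRNAs that punctuate them, so that one promoter region serves many genes. Most mature messengers then receive short poly(A) tails, whereas levels of single RNAs are set largely by processing and stability. The adult heart is densely packed with mitochondria, and these transcripts are accordingly among the most abundant RNAs in it. RNA was selected here on poly-T beads, which bind such tails. In 3 of the 13 protein-coding genes the gene ends in a lone T, and the tail completes the stop codon. The last 30 bases of these genes, from GENCODE M21 transcripts, are shown with the lone T in capitals, because the tail that the beads bind is here also part of the reading frame.
mt-Co3: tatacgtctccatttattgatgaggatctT
mt-Nd4: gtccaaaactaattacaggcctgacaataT
mt-Cytb: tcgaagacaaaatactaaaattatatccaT

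Cardiomyocyte markers were abundant in each library, as the tissue label requires, with a summed level of 62192 to 77322 CPM (counts scaled to library size, with TMM factors) after vehicle and 52954 to 59920 CPM after dexmedetomidine. Markers of atrial tissue summed to between 7.52 and 59.9 CPM. Gene counts summed to 50.3 to 56.6 M per vehicle library and 42.7 to 48.6 M per dexmedetomidine library. Dexmedetomidine replicate 1 lay nearest to the vehicle group in many of the measures below. Vehicle replicate 3 lay nearest to the dexmedetomidine group in some of them and vehicle replicate 1 in others, the mitochondrial share among them. The effect of these libraries is given where it matters.

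Levels of neighbouring mitochondrial genes differed widely. Per length, mt-Co1, the catalytic core of cytochrome c oxidase, had the highest mean level over the 6 libraries, 86005 CPM per kb, followed by mt-Cytb of complex III at 38655 and the complex I gene mt-Nd1 at 33073. The other complex I genes mt-Nd2, mt-Nd4, mt-Nd5 and mt-Nd6 stood at 21226, 15941, 13676 and 12592 CPM per kb. In contrast mt-Co2 and mt-Co3, which code for the other mitochondrial subunits of cytochrome c oxidase, stood at 284 and 253 CPM per kb. The ATP synthase subunit gene mt-Atp6 was at 211, the small complex I subunits mt-Nd3 and mt-Nd4l at 203 and 102, and mt-Atp8, the second ATP synthase subunit, at 4.63 CPM per kb. These genes lie side by side on the mitochondrial genome between mt-Co1 and mt-Nd4.

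**Figure D1:**
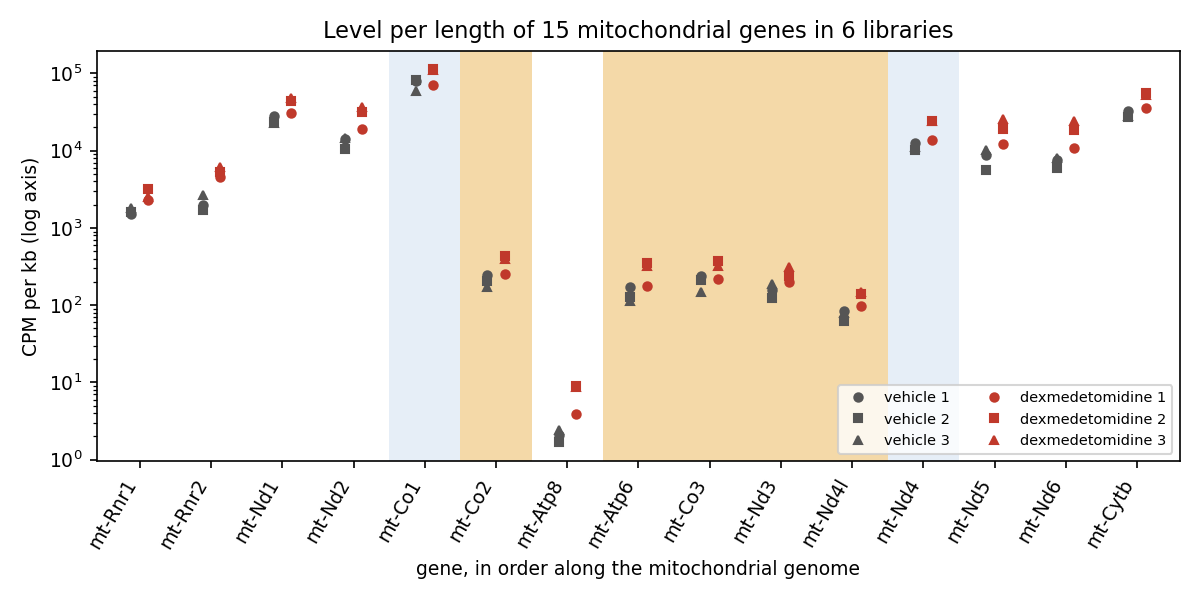
Level of the 13 protein-coding and 2 rRNA genes in CPM per kb (log axis), in their order along the mitochondrial genome, with 1 point per library (grey, vehicle; red, dexmedetomidine; shapes, replicates). Orange bands mark genes with over 95% of their 100-base windows also present in a nuclear transcript, blue bands genes with 5% to 95%; mt-Co2 to mt-Nd4l sit between 1.68 and 431 CPM per kb, the genes on either side of them at 1532 or above.

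The genes of this low stretch have near-identical copies in the nucleus. Each gene was cut into all its windows of 100 bases, and the share of windows found letter for letter in an annotated nuclear transcript (GENCODE M21, GRCm38) was counted. That share was 99.5% for mt-Co2, 99.5% for mt-Atp6, 99.9% for mt-Co3, 97.6% for mt-Nd3 and 98.5% for mt-Nd4l. It was 60.8% for mt-Nd4, 30.8% for mt-Co1, 3.19% for mt-Nd2 and 0% for mt-Nd1, mt-Nd5, mt-Nd6, mt-Cytb, mt-Rnr1 and mt-Rnr2. The 5 protein-coding genes under 5% (mt-Atp8 aside) had a median level 101 times that of the 5 genes over 95%, and the lowest of the former was 44.3 times the highest of the latter. For mt-Atp8 no window was found, yet it had the lowest level of the protein-coding genes. Its gene lies between mt-Co2 and mt-Atp6, intergenic sequence was not searched, and its last 43 bases are also the first 43 of mt-Atp6. That shared stretch is shown because a read over it belongs to both genes, and HTSeq has a separate row for such ambiguous reads.
mt-Atp8 and mt-Atp6: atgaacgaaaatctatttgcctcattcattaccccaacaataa

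Most of the shared windows lie in 7 neighbouring pseudogenes on chromosome 1, with no other annotated gene between them, in the mirrored order of the mitochondrial genes. On chromosome 2, Gm13339, Gm13340 and Gm13341 share 30, 80 and 88 windows with mt-Nd2, mt-Co1 and mt-Co2. Gm28661, Gm10925, Gm28437, Gm10222 and Gm28439 had no substitution against mt-Co2, mt-Atp6, mt-Co3, mt-Nd4l and mt-Nd4 over 681, 678, 783, 294 and 876 compared bases. Gm28438 differed from mt-Nd3 by 1 substitution, T3C, counted from 1 at the start of the mitochondrial gene. Gm29216 covered 492 of the 1545 bases of mt-Co1, with the substitutions T1056A, C1057T, A1059G, A1060G, C1062A and A1066T, and no other up to the end of the gene. The edge of this copy is shown for bases 1054 to 1110 of mt-Co1, with substituted bases in capitals. It is shown because a read from the left of it does not match Gm29216, and a read from the right matches both genomes.
mt-Co1: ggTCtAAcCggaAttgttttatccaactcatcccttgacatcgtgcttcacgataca
Gm29216: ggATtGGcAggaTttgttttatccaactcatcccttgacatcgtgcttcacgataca

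The deposited table holds a summary row for alignments at more than 1 place, and those reads enter no gene. This row took 31.4%, 28.6% and 28.0% of all reads of the table for replicates 1, 2 and 3 of the vehicle group against 31.2%, 39.5% and 39.4% with dexmedetomidine. Its size kept a narrow ratio to the mitochondrial counts, with 1.96, 1.95 and 1.83 such reads per mitochondrial count after vehicle and 1.83, 1.92 and 1.86 after dexmedetomidine. Which genome these reads came from was not tested. Levels of mt-Co2, mt-Atp6, mt-Co3, mt-Nd3 and mt-Nd4l are therefore read below only between libraries, not against other genes. Referred to the parts outside the shared windows, mt-Co1 stood at 132877 and mt-Nd4 at 43759 CPM per kb. On that measure mt-Nd4 lay above mt-Cytb (38655) and mt-Nd1 (33073), and over its full length below them. Its rank among the genes is therefore not read either.

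Mitochondrial genes together took a larger part of the counts in each dexmedetomidine library than in any vehicle library. Their share of gene counts was 25.2%, 22.0% and 23.3% for replicates 1, 2 and 3 of the vehicle group, against 27.1%, 36.9% and 38.2% with dexmedetomidine. The groups did not overlap, although dexmedetomidine replicate 1 lay nearer to vehicle replicate 1 than to the other libraries of its own group. The difference of means was 10.5 percentage points (exact two-sided permutation p = 0.1, the smallest that 3 against 3 libraries allow; adjusted over 5 measures, 0.167). Over all reads of the table, the row of multiple alignments included, the shares were 14.7% to 16.0% and 17.1% to 21.2%, a difference of 4.26 points. As raw counts, not scaled to depth, mitochondrial counts overlapped, at 11.1 to 14.3 M after vehicle and 13.2 to 16.5 M after dexmedetomidine. The overlap came from vehicle replicate 1 (14.3 M), the library with the most gene counts (56.6 M). Vehicle replicates 2 and 3 stood at 11.1 and 11.9 M. Raw counts in all other genes did not overlap, at 39.2 to 42.3 M and 26.7 to 35.5 M. A share cannot separate more of one part from less of the other, and in tissue RNA a change in the number of cells of a type and a change in RNA per cell cannot be told apart.

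**Figure D2:**
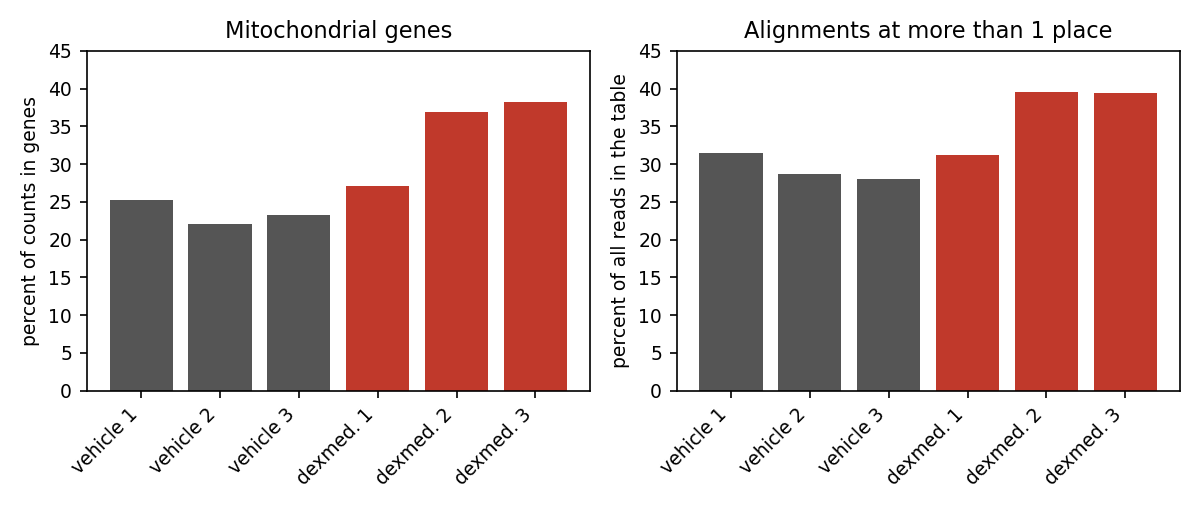
Share of gene counts in the 37 mitochondrial genes (left, percent of counts in genes) and share of alignments at more than 1 place (right, percent of all reads of the table), 1 bar per library (grey, vehicle; red, dexmedetomidine). Dexmedetomidine replicates 2 and 3 are highest in both panels, and replicate 1 lies close to vehicle replicate 1.

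Cell type markers also moved with the groups. The summed level of the 10 cardiomyocyte markers was lower in each dexmedetomidine library, as given above, while that of 5 fibroblast markers (906 to 1187 against 790 to 903 CPM) and of 5 smooth muscle and pericyte markers (1249 to 1431 against 931.5 to 1049 CPM) was higher. By gene, 4 of the 5 fibroblast markers but only 2 of the 5 smooth muscle and pericyte markers had a log2 fold change above 0. The smooth muscle and pericyte sum was carried by Rgs5, a pericyte marker, at 662 ± 80.4 CPM after vehicle and 1045 ± 131 with dexmedetomidine (SD, n = 3). Without Rgs5, a step added after the data were seen, the sums of the other 4 genes overlapped, at 281 to 361.5 and 267 to 344 CPM. Without Dcn, the most abundant fibroblast marker, the sums of the other 4 were still apart, at 267 to 302 and 322 to 336 CPM. With each library's trend on GC content and gene length removed, the log2 fold change of Rgs5 went from 0.66 to 0.074. That of Dcn went from 0.42 to -0.43 and the fibroblast median from 0.37 to 0.096. The cardiomyocyte median moved little, from -0.29 to -0.26. Endothelial, macrophage, neutrophil, erythroid and atrial lists overlapped between the groups, and no marker was at 0 in all libraries. Their part in the mitochondrial share was not tested.

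Of the 18 tested mitochondrial genes, 16 had a log2 fold change above 0 (dexmedetomidine minus vehicle), against 50.3% of all 14738 genes tested. For 14 of the 18, the 3 dexmedetomidine levels all lay above the 3 vehicle levels, against 15.6% of all genes. None passed edgeR's quasi-likelihood test at an adjusted p of 0.05, where 0% of all genes passed, and 15 of the 18 had an unadjusted p under 0.05. All 15 were higher with dexmedetomidine, and 12.5% of all genes had such a p with a higher level. DESeq2 called 14 of the 18 higher (5.97% of all genes) and limma-voom with quality weights 14 (8.79% of all genes). These genes come from shared precursors and are not independent of each other. Without vehicle replicate 3 edgeR called 7 of the mitochondrial genes, where 6.13% of all genes were called higher. Without dexmedetomidine replicate 1 it called 4, where 0.0265% of all genes were called higher. Without vehicle replicate 1, vehicle replicate 2, dexmedetomidine replicate 2 or dexmedetomidine replicate 3 it called 0 of them. In those runs at most 5 of all genes tested were called.

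Mitochondrial genes are AT-rich, between 31.9% and 41.1% GC among the 15 protein-coding and rRNA genes. After removal of each library's trend on GC content and gene length, 6 of the 15 turned to below 0. These were mt-Rnr1 (-0.24), mt-Nd1 (-0.082), mt-Co1 (-0.23), mt-Co3 (-0.073), mt-Nd3 (-0.48) and mt-Nd4 (-0.14). The other 9 stayed above 0, at 0.039 for mt-Cytb up to 0.57 for mt-Atp8, and no gene was called. The median over the 13 protein-coding genes was 0.80 as tested and 0.11 with the trend removed, against 0.0032 and -0.030 over all genes. Each direction given below for a single gene therefore holds for the counts as deposited, and for these 6 it reversed with the trend removed. Scaling on nuclear genes alone moved values little, with a median of 0.78 over the 18 genes against 0.79 as tested.

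**Figure D3:**
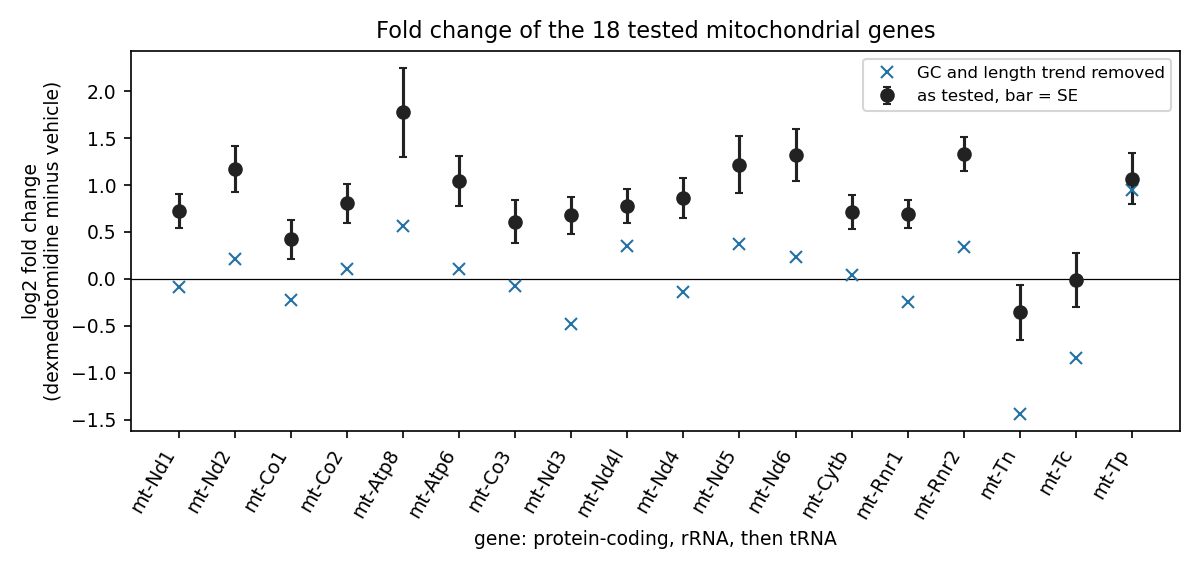
Log2 fold change of the 18 tested mitochondrial genes (vertical axis, dexmedetomidine minus vehicle; filled points with bars of 1 SE from edgeR, n = 3 per group) and the same value with the GC and length trend removed (crosses), by class along the horizontal axis. All 15 protein-coding and rRNA genes lie above 0 as tested, from 0.42 for mt-Co1 to 1.78 for mt-Atp8, and 6 of them lie below 0 with the trend removed.

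The 7 complex I genes, which code for the membrane arm of NADH dehydrogenase, had log2 fold changes between 0.68 and 1.32 (median 0.86). For all 7 the dexmedetomidine levels lay above the vehicle levels, against 15.6% of all genes. With the GC and length trend removed the median was 0.22, and 4 of the 7 stayed above 0. mt-Nd2 measured 14089, 10533 and 14546 CPM per kb for replicates 1, 2 and 3 of the vehicle group against 19179, 32128 and 36883 with dexmedetomidine. The log2 fold change was 1.17 (SE 0.24, edgeR adjusted p = 0.101), the lowest dexmedetomidine library standing clear of the highest vehicle library. mt-Nd5, the largest subunit, measured 8795, 5646 and 10231 CPM per kb after vehicle and 12306, 19231 and 25848 after dexmedetomidine. Its log2 fold change was 1.22 (SE 0.30, edgeR adjusted p = 0.109), with a wide spread within each group. mt-Nd1, the subunit at the junction with the peripheral arm, measured 28531, 23358 and 23039 CPM per kb after vehicle and 30659, 44331 and 48519 after dexmedetomidine, and dexmedetomidine replicate 1 was only slightly above vehicle replicate 1. The fitted log2 fold change was 0.72 (SE 0.18). mt-Nd4, another proton-pumping subunit, had a log2 fold change of 0.86 (SE 0.21), at 11305 ± 1183 CPM per kb after vehicle and 20577 ± 5948 after dexmedetomidine (SD, n = 3). The small subunit genes mt-Nd3 and mt-Nd4l, both largely shared with nuclear copies, differed by 0.68 (SE 0.20) and 0.78 (SE 0.18) on the log2 scale.

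In complex III, mt-Cytb codes for the only mitochondrially made subunit, cytochrome b. It measured 32419, 27572 and 27957 CPM per kb after vehicle and 35358, 55469 and 53152 after dexmedetomidine, so the groups were apart with dexmedetomidine replicate 1 nearest to the vehicle range. The log2 fold change was 0.71 (SE 0.18, edgeR adjusted p = 0.108).

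The 3 complex IV genes had a median log2 fold change of 0.61, and the groups were apart for 1 of 3 (15.6% of all genes, higher). With the trend removed the median was -0.073. mt-Co1 measured 79111, 81386 and 60166 CPM per kb after vehicle and 70663, 112935 and 111766 after dexmedetomidine. Here dexmedetomidine replicate 1 lay below vehicle replicates 1 and 2, and the log2 fold change of 0.42 (SE 0.20, edgeR adjusted p = 0.266) was the lowest of the protein-coding genes. mt-Co2 had a log2 fold change of 0.80 (SE 0.21) and mt-Co3 of 0.61 (SE 0.23, groups overlapping). Since mt-Co1 alone made up 50.1%, 56.4% and 44.98% of mitochondrial counts in the vehicle replicates, it weighs heavily in any sum. With mt-Co1 left out of both parts, a step added after the data were seen, the difference in mitochondrial share was 9.88 percentage points. For the protein-coding and rRNA genes with under 5% of windows shared (mt-Atp8 aside), the share of all gene counts differed by 6.99 points.

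The ATP synthase genes mt-Atp6 and mt-Atp8, which code for subunits of the membrane part of the enzyme, differed by 1.04 (SE 0.26) and 1.78 (SE 0.47) on the log2 scale. mt-Atp8 rested on 25, 17 and 29 counts per vehicle library and 41, 71 and 69 per dexmedetomidine library. The groups were apart for both genes (15.6% of all genes, higher). Why mt-Atp8 had so few counts was not tested.

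The ribosomal RNAs mt-Rnr1 (12S) and mt-Rnr2 (16S) form the core of the mitochondrial ribosome. Their mean levels over the 6 libraries were 2165 and 3738 CPM per kb. RNA was selected on poly-T beads, so these values describe the rRNA that was captured. They are not read as amounts of rRNA against messengers or of the rRNAs against each other. mt-Rnr2 measured 1968, 1719 and 2693 CPM per kb after vehicle and 4591, 5384 and 6076 after dexmedetomidine, so the groups lay far apart, and its unadjusted edgeR p was the smallest of the members tested. The log2 fold change was 1.33 (SE 0.18, edgeR adjusted p = 0.101, DESeq2 adjusted p = 1.31e-07) and 0.34 with the GC and length trend removed. mt-Rnr1 measured 1532, 1603 and 1830 after vehicle and 2301, 3182 and 2540 after dexmedetomidine. Its log2 fold change was 0.69 (SE 0.15, edgeR adjusted p = 0.101). Both rRNAs are cut from the same precursor. Counts of mt-Rnr2 per count of mt-Rnr1 were 2.13, 1.78 and 2.44 after vehicle and 3.30, 2.80 and 3.96 after dexmedetomidine, a ratio chosen after the values were seen. Within the mitochondrial counts, both rRNAs made up 1.88%, 1.91% and 2.91% in the vehicle replicates against 3.70%, 2.86% and 2.84% with dexmedetomidine. Vehicle replicate 3 overlapped the dexmedetomidine range, and the difference of 0.90 percentage points had an exact permutation p of 0.3 (adjusted over 5 measures, 0.3).

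On strands, 28 of the 37 genes read one way and 9 the other, namely mt-Nd6 and 8 tRNA genes. mt-Nd6 is the one protein-coding gene of the second strand, and its base composition is reversed, with 28.1% G and 5.97% C where the other 12 have medians of 11.02% G and 26.0% C. The first 60 bases of mt-Nd6 and of its neighbour mt-Nd5 are shown in their own reading directions with each G in capitals, to show this strand difference.
mt-Nd5: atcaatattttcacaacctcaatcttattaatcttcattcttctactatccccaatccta
mt-Nd6: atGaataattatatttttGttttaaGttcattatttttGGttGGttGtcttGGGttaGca

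mt-Nd6, a membrane subunit of complex I, measured 7558, 5967 and 8106 CPM per kb after vehicle and 10880, 18423 and 24621 after dexmedetomidine. At a log2 fold change of 1.32 (SE 0.28, edgeR adjusted p = 0.101), each dexmedetomidine library was above each vehicle library. Within the protein-coding mitochondrial counts its share was 1.64%, 1.42% and 2.10% in the vehicle replicates against 2.29%, 2.44% and 3.10% with dexmedetomidine. The groups were apart, with a difference of 0.89 percentage points (exact permutation p = 0.1, again the lowest attainable, and 0.167 adjusted over 5 measures). Per length, mt-Nd6 stood at 0.86, 1.06 and 0.79 of mt-Nd5 in the vehicle replicates against 0.88, 0.96 and 0.95 with dexmedetomidine, so the groups overlapped in this ratio to the neighbour on the opposite strand. Whether counting used strand is not given in the sources used here, and the mature mt-Nd5 messenger is known to run on opposite to mt-Nd6. Counts of mt-Nd6 can thus include reads of the other strand, and how many was not tested.

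The tRNA genes, 59 to 75 bases long, gave almost no counts. Together they made up 0.038%, 0.052% and 0.049% of mitochondrial counts in the vehicle replicates against 0.047%, 0.061% and 0.061% with dexmedetomidine. These ranges overlapped (difference 0.010 percentage points, exact permutation p = 0.3, adjusted over 5 measures 0.3). Of the 22 genes, 7 had no count in any library, which allows up to 0.077 CPM in the smallest library for 3 counts, and 12 others had at most 11 counts in a library. The remaining 3, mt-Tp, mt-Tn and mt-Tc, carry proline, asparagine and cysteine and all belong to the second strand. As for mt-Nd6, their counts can include reads of the other strand, because the strand setting is not given. Whether these counts came from tRNAs or from longer transcripts was not tested. The sequences of these 3 genes are printed because they were the only tRNA genes with at least 10 counts per library on average.
mt-Tp: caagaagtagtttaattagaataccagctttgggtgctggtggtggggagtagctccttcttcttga
mt-Tn: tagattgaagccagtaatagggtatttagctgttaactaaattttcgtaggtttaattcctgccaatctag
mt-Tc: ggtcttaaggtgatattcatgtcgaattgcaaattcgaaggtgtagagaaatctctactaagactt

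Of all tRNA counts, 96.0% fell to mt-Tp, the last gene before the non-coding control region. It had 5006, 5446 and 5580 counts in the vehicle replicates against 5966, 9386 and 9917 with dexmedetomidine. Its log2 fold change was 1.07 (SE 0.27, edgeR adjusted p = 0.110), with the groups apart, and 0.95 with the GC and length trend removed. In contrast mt-Tn had 290, 235 and 149 counts after vehicle against 153, 147 and 110 with dexmedetomidine (log2 fold change -0.36, SE 0.30), and mt-Tc had 116, 91 and 101 and 79, 73 and 82 (log2 fold change -0.014, SE 0.29). Neither was called by edgeR, DESeq2 or limma-voom, and their levels overlapped between groups. With the GC and length trend removed, mt-Tn was at -1.44 and mt-Tc at -0.84. As a share of mitochondrial counts, both genes were lower in each dexmedetomidine library than in any vehicle library. mt-Tc changed sign when vehicle replicate 1 or dexmedetomidine replicate 1 was left out.

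The makeup of the mitochondrial counts was also compared. As a share of all mitochondrial counts, 5 of the 15 protein-coding and rRNA genes were higher in each dexmedetomidine library, 1 was lower and 9 overlapped. This tally was not tested and has no counterpart among nuclear genes. Reads aligned at more than 1 place entered no gene, so these are shares of the counts and not of mitochondrial RNA. The gene with the lower share was mt-Co1, at 50.1%, 56.4% and 44.98% in the vehicle replicates against 42.6%, 43.2% and 40.7% with dexmedetomidine. Those with the higher share were mt-Rnr2 (1.52% ± 0.470 and 2.40% ± 0.384, SD, n = 3 each), mt-Nd2 (6.07% ± 1.20 and 8.35% ± 0.629), mt-Nd4 (6.94% ± 0.521 and 7.79% ± 0.408), mt-Nd6 and mt-Atp8. mt-Cytb (14.9% ± 0.704 and 15.3% ± 0.822) and mt-Nd1 (10.6% ± 0.588 and 10.97% ± 0.483) differed by less than their spread. The shares sum to 100, so they are not independent of each other. Across the 15 genes, Spearman's rho between log2 fold change and GC content was -0.57, a description over genes that share their precursors and libraries.

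**Figure D4:**
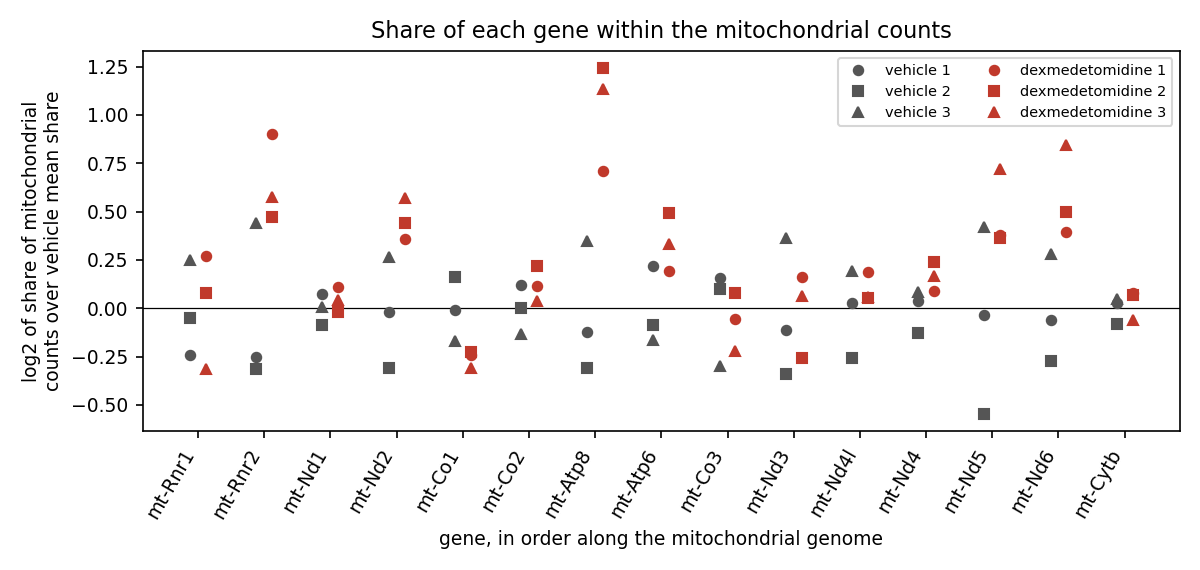
Share of each of 15 genes within all mitochondrial counts, as log2 of the share over the mean vehicle share (vertical axis), in genome order, with 1 point per library (grey, vehicle; red, dexmedetomidine; shapes, replicates). mt-Co1 lies below 0 in the 3 dexmedetomidine libraries and mt-Rnr2, mt-Nd2, mt-Nd6 and mt-Atp8 lie above the vehicle libraries, while mt-Nd1 and mt-Cytb stay near 0.

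The complexes are built from both genomes, so the 13 mitochondrially encoded subunits were set against 82 tested nuclear-encoded subunits of complexes I to V. The mean log2 CPM of the mitochondrial genes was 10.1, 9.82 and 9.97 in the vehicle replicates against 10.4, 11.1 and 11.2 with dexmedetomidine. That of the nuclear genes was 8.06, 8.33 and 7.92 after vehicle and 7.92, 7.79 and 7.78 after dexmedetomidine. Mitochondrial minus nuclear level was 2.08, 1.49 and 2.05 after vehicle and 2.45, 3.29 and 3.38 after dexmedetomidine, a difference of 1.17 on the log2 scale with the groups apart (exact permutation p = 0.1, again the lowest attainable, and 0.167 adjusted over 5 measures). With the GC and length trend removed the difference was 0.26 (exact permutation p = 0.4). Of the 82 nuclear genes, 72 had a log2 fold change below 0 (49.7% of all genes), with a median of -0.24. With the trend removed their median was -0.19, against -0.030 over all genes. For 28 the groups were apart with dexmedetomidine lower (12% of all genes). DESeq2 called 13 of them lower (2.66% of all genes) and 0 higher, limma-voom 23 lower (5.2% of all genes) and 0 higher, and edgeR 0, with an unadjusted p under 0.05 and a lower level for 31 (9.03% of all genes).

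**Figure D5:**
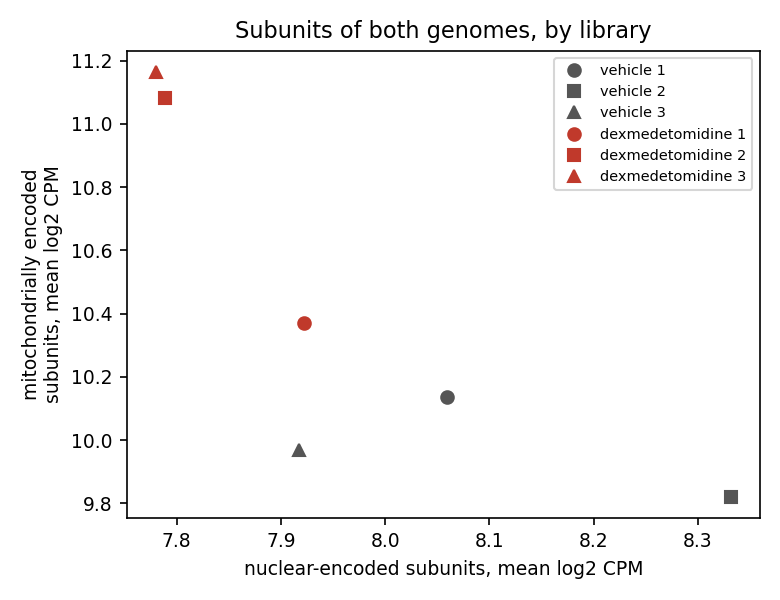
Mean log2 CPM of 13 mitochondrially encoded subunits (vertical axis) against that of 82 nuclear-encoded subunits of the same complexes (horizontal axis), 1 point per library (grey, vehicle; red, dexmedetomidine; shapes, replicates). Dexmedetomidine replicates 2 and 3 lie at the upper left, vehicle replicate 2 at the lower right, and the other 3 libraries between them.

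The nuclear genes that serve the mitochondrial genome showed no call in edgeR in any of 5 lists. Of 10 genes for mitochondrial transcription, 8 were above 0 (50.3% of all genes; median log2 fold change 0.39) and 5 had an unadjusted p under 0.05 with a higher level (12.5% of all genes). DESeq2 called 1 higher (5.97% of all genes) and limma-voom 3 (8.79% of all genes). The DESeq2 call was Mterf3, a regulator of mitochondrial transcription, at 14.3 ± 2.98 CPM in the vehicle group and 21.6 ± 1.95 in the treated one (SD, n = 3; log2 fold change 0.59, SE 0.17, DESeq2 adjusted p = 0.0411). Tfb2m, which helps the polymerase open promoters, and Mterf2 had log2 fold changes of 0.43 and 0.50. Tfam, which packages the DNA and activates transcription, was at 0.31 and the polymerase gene Polrmt at -0.14, neither called by edgeR or DESeq2. With the trend removed the list median was 0.13, with Mterf3 at 0.093, Tfb2m at -0.0053, Mterf2 at 0.17, Tfam at 0.041 and Polrmt at 0.19.

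Of 19 tested genes for RNA processing, tailing, stability and decay, 12 were above 0 (50.3% of all genes; median 0.12), and DESeq2 called 3 higher and 1 lower (5.97% and 2.66% of all genes). Pnpt1, which codes for a mitochondrial polynucleotide phosphorylase that degrades RNA, measured 19.7 ± 1.23 CPM in the vehicle group and 30.4 ± 2.40 in the treated one (SD, n = 3; log2 fold change 0.63, SE 0.13, DESeq2 adjusted p = 0.00356, edgeR adjusted p = 0.101). This value became -0.075 with the GC and length trend removed. Lactb2, an endoribonuclease, and Trmt10c, a subunit of the RNase P that cuts the tRNAs out, had log2 fold changes of 0.72 and 0.75, and the nuclease gene Endog of -0.63. With the trend removed these were 0.071, 0.30 and -0.12. Lrpprc, which binds and stabilises mitochondrial messengers, was at 0.17 (SE 0.12), its partner Slirp at -0.17 (SE 0.17), and the poly(A) polymerase gene Mtpap at 0.51 (SE 0.18), none of them called by edgeR or DESeq2. With the trend removed Lrpprc was at -0.023, Slirp at -0.56 and Mtpap at 0.22.

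Of 13 genes for replication and maintenance, 6 were above 0 (50.3% of all genes; median -0.019). DESeq2, which called 5.97% of all genes higher, called Ssbp1, the single-strand binding protein (log2 fold change 0.57), and Rrm2b, a ribonucleotide reductase subunit (0.88), higher. Polg, the catalytic subunit of the DNA polymerase, was at -0.34 and not called. Of 15 genes for rRNA and tRNA modification, 7 were above 0 (50.3% of all genes; median -0.038), and neither edgeR (also 0 at an unadjusted p under 0.05) nor DESeq2 nor limma-voom called any. The smallest p values there were those of Trnt1 (0.42), Cdk5rap1 (0.38) and Pus1 (-0.30). Of 11 translation genes, 5 were above 0 (50.3% of all genes; median -0.057), and DESeq2 called Mtif2, an initiation factor (0.56), higher (5.97% of all genes). Tufm, the elongation factor Tu, was at -0.37 and Mtrf1l, a release factor, at 0.30. With the trend removed Ssbp1 was at -0.021, Rrm2b at 0.16, Mtif2 at 0.27, Tufm at -0.11, Trnt1 at -0.18 and Pus1 at 0.0089. Polg was then at -0.31, Cdk5rap1 at 0.42 and Mtrf1l at 0.22, nearer to their values as tested.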

How the data were processed

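RNA was measured in 6 libraries of apical mouse heart, 3 per group, grouped by the labels. The authors deposited raw counts per gene. The tools named in the submitters' processing notes are HTSeq and Trim Galore, with build mm9. Aligner, annotation and strand setting: not given in the sources used here. The 5 rows that name no gene entered neither library sizes nor tests (multiple alignments, 28.0% to 39.5% of reads; ambiguous, 1.83% to 2.37%; outside genes, 2.33% to 3.63%).

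Members were matched by Ensembl identifier, and 37 of 37 deposited lengths equalled GENCODE M21 transcript lengths. That reference is of GRCm38, so no coordinates are given. Nuclear copies had been planned to be sought in the nuclear chromosomes, but no genome sequence was used, and annotated transcripts were searched instead. Genes were tested with edgeR 4.0.16 (R 4.3.3; TMM, filterByExpr, robust quasi-likelihood test, Benjamini-Hochberg over all 14738 genes, threshold 0.05), and single values by exact permutation with scipy 1.17.1. Standard errors were derived from the F statistic. Levels are CPM from TMM-scaled library sizes, divided by deposited length where genes are compared, and log2 CPM used a prior count of 2. Every pair of libraries differed by more than counting noise (chi-square per degree of freedom 31.0 to 480). Alternatives were DESeq2 1.42.0, limma-voom 3.58.1, other scalings and filters, a replicate block, leaving out each library, and removal of each library's spline trend on GC content and length. All protein-coding and rRNA members are given, tRNA genes from a mean of 10 counts, and for other lists the 3 smallest p. Members and lists were chosen with earlier results of these data known. Some further genes were named for their role after values were seen (Tfam, Polrmt, Lrpprc, Slirp, Mtpap and Endog).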

Additional observations from a re-analysis of the deposited data

How the results depend on the processing

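The count of genes called by edgeR was 0 as tested, and 0 with the size factors of DESeq2, nuclear scaling, a mean CPM of at least 5 and the GC and length trend removed. It was 406 with no filter, 1272 in DESeq2, 2063 in limma-voom and 636 with the replicate block, and between 0 and 1251 with 1 library left out. For mitochondrial genes the count was 0 as tested, 6 with no filter, 14 in DESeq2, 14 in limma-voom, 7 with the replicate block and between 0 and 7 with 1 library left out. The cause was not tested. Same-numbered libraries had correlations of deviations of -0.055, 0.036 and 0.15, and the other pairs ranged from -0.19 to 0.15. Correlations from so few libraries cannot decide whether the numbers pair them, and the block is not read further. By 3 number-matched pairs the subunit difference is again 1.17, which arithmetic fixes, since any pairing gives the same mean difference. With the groups apart, the exact sign-flip p of 0.25, the smallest possible, was fixed in the same way. Neither value is a check on the result. With the GC and length trend removed, log2 fold changes reversed for mt-Rnr1 (-0.24), mt-Nd1 (-0.082), mt-Co1 (-0.23), mt-Co3 (-0.073), mt-Nd3 (-0.48) and mt-Nd4 (-0.14), and mt-Tc reversed to 0.032 without vehicle replicate 1 and 0.10 without dexmedetomidine replicate 1, within a range of -0.12 to 0.10. The 5 measures by library kept their direction in each alternative run, and with 1 library left out the difference in mitochondrial share was 8.48 to 14.0 percentage points. Depth limits mt-Atp8 and the tRNA genes other than mt-Tp.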

Other observations

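Of the nuclear transcripts that share windows of 100 bases with mitochondrial genes, 4 have rows of their own in the deposited table. Gm10222, identical to mt-Nd4l over its length, had 2029, 1237 and 1610 counts in the vehicle replicates and 1769, 2206 and 2092 in the dexmedetomidine replicates. That was more than mt-Nd4l itself in 6 of 6 libraries. Gm13339, which matches part of mt-Nd2, had 62, 54 and 65 counts after vehicle and 87, 107 and 96 after dexmedetomidine. Per 1000 counts of mt-Nd2 this was 0.072 to 0.10 and 0.064 to 0.085. Gm13340, which matches part of mt-Co1, had 0.35 to 0.41 counts per 1000 of mt-Co1 after vehicle and 0.33 to 0.36 after dexmedetomidine. Gm13341 had 41.4 to 51.1 and 36.8 to 42.1 counts per 1000 of mt-Co2. These are raw counts with no test, and which genome the reads came from was not tested.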
